A study of Arabidopsis thaliana with 10 samples.

Results

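The sites described here were SEP3-AG binding sites of Arabidopsis thaliana that held 2 CArG boxes at a spacing of 36, 37, 46, 47, 56 or 57 bp, counted from the start of a box to the start of the next. A site was a peak summit of SEP3-AG replicate 1 with a summit within 200 bp in both of the other SEP3-AG libraries, and 6358 of 8888 summits met this rule. A CArG box was read as a 10 bp run of CC, then 6 bases that are A or T, then GG, with at most 1 mismatch. In the 400 bp window around the summit, 1265 of the 6358 sites held 2 boxes from 20 to 100 bp apart. In 246 of them at least 1 pair lay at a preferred distance, which was 19.4% of the windows with a pair (95% Wilson interval 17.4% to 21.7%) and 3.87% of all SEP3-AG sites. The other 1019 windows, with pairs only at other distances, served as the comparison. The preferred distances were taken from the study, which read them from these same SEP3-AG libraries, most clearly at peaks specific to SEP3-AG, and by contrast with these same SEP3Δtet-AG and SEP3 libraries. Their excess in SEP3-AG, the SEP3-AG strength of the members and their calls in the other complexes are therefore descriptions, given with no p-value.

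Floral organs are specified by MADS-domain transcription factors, among them SEPALLATA3 (SEP3) and AGAMOUS (AG). A dimer of MADS proteins binds a single CArG box, and a tetramer of MADS proteins can hold a pair of boxes at once by looping the DNA between them. AG with SEP proteins specifies carpels and ends the growth of the floral meristem. Stamens are specified by AG and SEP proteins together with the MADS proteins AP3 and PISTILLATA.

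The proteins were made in vitro and used to pull fragments of naked Col-0 seedling genomic DNA, which were then sequenced. SEP3-AG (3 libraries) paired SEP3 carrying a FLAG tag with AG carrying a Myc tag. SEP3Δtet-AG (2 libraries) used a SEP3 splice variant that lacks part of the tetramerisation region, with the same AG. SEP3 (4 libraries) held FLAG-tagged SEP3 with no partner. The heteromeric complexes were purified through FLAG and then Myc, and SEP3 through FLAG alone, so a comparison with SEP3 also carries this step. Peaks were called in each library against 1 shared input DNA sample. Lists of SEP3-AG held 6643 to 9588 summits, those of SEP3Δtet-AG 3331 and 2329, and those of SEP3 replicates 1 to 4 held 473, 1225, 1915 and 8916. The list of SEP3 replicate 4 named its peaks with a library prefix that differs from the one in the remaining 8.

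The following stretches show what such sites look like. Each is the TAIR10 plus strand, with 10 bp on either side, and capitals mark the boxes of the pair. The first 4 belong to the 10 members that ranked best in SEP3-AG and had a summit in all 9 libraries.
HB34, chr3:10940127-10940212: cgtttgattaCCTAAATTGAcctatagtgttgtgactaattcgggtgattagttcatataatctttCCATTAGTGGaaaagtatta
AT1G19330, chr1:6682991-6683066: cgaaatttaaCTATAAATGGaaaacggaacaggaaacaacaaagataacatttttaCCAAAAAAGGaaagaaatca
KUP11, chr2:14780040-14780116: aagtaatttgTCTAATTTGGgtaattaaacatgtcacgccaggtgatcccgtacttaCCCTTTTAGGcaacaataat
ATG18C, chr2:17032150-17032215: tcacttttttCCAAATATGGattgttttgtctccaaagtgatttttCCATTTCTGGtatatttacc
The next 3 are the best-ranked members with no summit in any SEP3Δtet-AG or SEP3 library.
AT5G41900, chr5:16770570-16770646: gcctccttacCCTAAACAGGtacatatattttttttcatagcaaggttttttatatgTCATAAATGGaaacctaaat
AT4G08540, chr4:5434350-5434425: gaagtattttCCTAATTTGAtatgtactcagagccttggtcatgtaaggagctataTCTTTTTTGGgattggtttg
AT1G51720, chr1:19182476-19182552: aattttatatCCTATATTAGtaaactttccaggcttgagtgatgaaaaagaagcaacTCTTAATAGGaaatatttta
The last 2 are the member at the MADS gene AGL42, with a box that has no mismatch, and the comparison window at KNU, whose promoter the study tested for spacing.
AGL42, chr5:24963981-24964067: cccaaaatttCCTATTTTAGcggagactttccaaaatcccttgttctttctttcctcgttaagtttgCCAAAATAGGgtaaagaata
KNU, chr5:4521288-4521386: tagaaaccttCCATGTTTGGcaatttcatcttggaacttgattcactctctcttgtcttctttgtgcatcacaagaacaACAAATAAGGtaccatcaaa

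Pairs at these distances were more frequent in SEP3-AG sites than in the genome at large. Across 297863 tiles of 400 bp covering the 5 chromosomes, 40.2% held a box, 4.67% a pair from 20 to 100 bp apart and 0.479% a pair at a preferred distance. In SEP3-AG windows, centred on summits, these shares were 74.7%, 19.9% and 3.87%. Preferred distances made up 10.3% of the tiles with a pair and 19.4% of the SEP3-AG windows with a pair. At single distances, the 6 preferred ones were found in 38 to 55 windows each (median 42) and the 75 others in 10 to 48 (median 21). The peaks were not sharp. The distance of 45 bp, just outside the rule, was found in 48 windows, that of 38 bp in 35, that of 48 bp in 35, and those of 55 and 58 bp in 31 each, whereas 35 bp was found in 20.

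**Figure D1:**
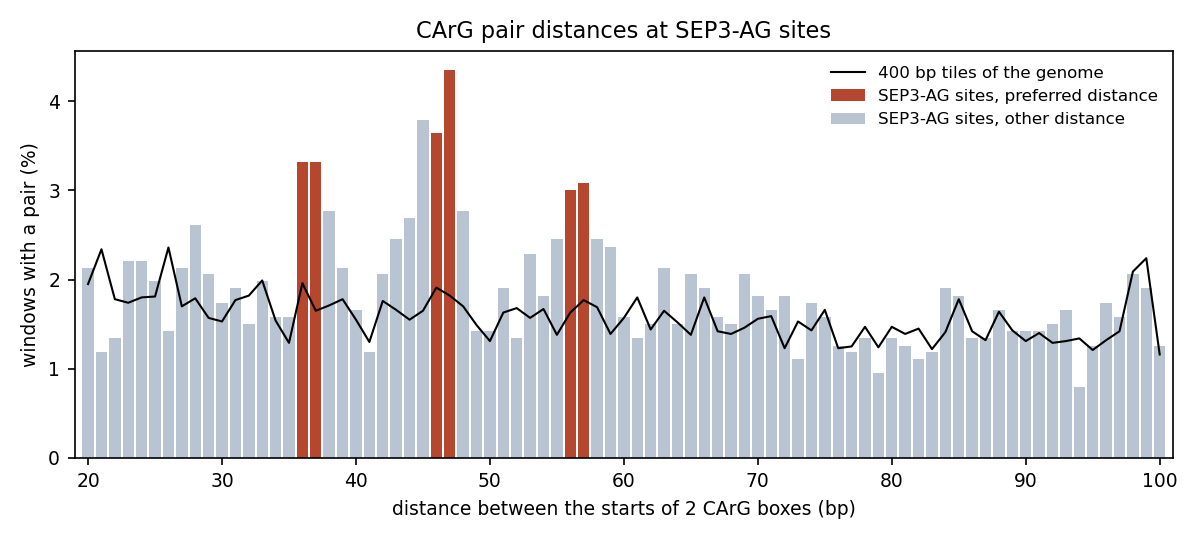
Share of windows with a CArG pair that hold a pair at each start-to-start distance (x axis, bp), for 1265 SEP3-AG windows (bars) and for 400 bp tiles of the genome (line). The bars rise around 36 to 38, 44 to 48 and 56 to 58 bp. The line has smaller local highs, among them at 36 and 46 bp, and lies below the bars at each preferred distance.

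The same summary was taken at each library's own summits in place of SEP3-AG sites. The distances were still those read from SEP3-AG by contrast with the other complexes, so the order of the groups is no independent result. Among all summits with a pair, the preferred share was 18.0%, 19.4% and 17.8% in SEP3-AG replicates 1 to 3, 14.8% and 15.1% in SEP3Δtet-AG, and 12.7%, 13.9%, 13.5% and 12.8% in SEP3 replicates 1 to 4. The 3 groups did not overlap in this share, and all 9 values lay above the 10.3% of genome tiles. Tiles are not centred on summits and are poorer in boxes, with a box in 40.2%, against 74.7% of SEP3-AG windows. No preference of SEP3Δtet-AG or SEP3 is therefore read from the tiles. At the 473 top summits of each list, the number in the shortest list, the share was 34.4%, 32.9% and 33.5% in SEP3-AG. It was 19.8% and 19.7% in SEP3Δtet-AG and 12.7%, 14.9%, 20.3% and 14.6% in SEP3. The SEP3-AG values again lay apart from the rest, whereas SEP3 replicate 3 was above both SEP3Δtet-AG libraries.

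Members had higher SEP3-AG values than the comparison windows, in the libraries from which the distances were read. The median fold enrichment of a member, the authors' ratio over the input background, was 7.84, 6.66 and 9.17 in SEP3-AG replicates 1 to 3, against 6.41, 5.37 and 7.39 for pairs at other distances. The probability that a member ranked above a comparison window by −log10 p was 0.587, 0.592 and 0.594 in these libraries. The mean of 0.591 ± 0.00362 (SD, n = 3) had every library above 0.5 (3 of 3). The libraries rank the same windows, so this SD leaves out the error from the choice of windows. Members nevertheless spanned the whole range, from 2.58 to 18.6 fold in replicate 1. With distances 5 bp longer or shorter in place of the preferred ones, the mean probability was 0.493 and 0.494. These sets share windows, since the moved distances overlap.

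The 3 spacing classes differed little in median strength. Median fold enrichment in SEP3-AG replicate 1 was 7.28 for the 79 members with a pair at 36 or 37 bp, 8.48 for the 98 at 46 or 47 bp and 7.69 for the 74 at 56 or 57 bp. A member can belong to more than 1 class, and 18 members held more than 1 preferred pair. No pair was shared by different members, and in no member did the stretch from box to box occur more than once in the genome.

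Members were found less often than the comparison windows with the complex that lacks the tetramerisation stretch, a contrast that the study used when it read the distances. In SEP3Δtet-AG replicate 1, 104 of 246 members had a summit (42.3%, background over all SEP3-AG sites 40.0%), against 528 of 1019 windows at other distances (51.8%). The difference was -9.54 percentage points (95% Newcombe interval -16.3 to -2.58). In replicate 2, 81 members had a summit (32.9%, background 29.8%), against 42.5% at other distances, a difference of -9.57 points (-15.9 to -2.77). The shares of members were close to the background, and it was the windows with pairs at other distances that stood above the background. The mean gap of -9.55 ± 0.0189 points (SD, n = 2) had the same sign in 2 of 2 libraries. Both libraries score the same windows, so this SD leaves out the counting error that the intervals give. The lists do not tell a site that was not bound from a site bound too weakly to be called.

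SEP3 alone showed the same sign. In replicate 1, the shortest list, 7.72% of members had a summit (background 6.59%), against 12.9% at other distances. In replicate 2 the shares were 18.7% (background 14.7%) and 23.7%, and this difference of -4.95 points had an interval that included 0 (-10.1 to 0.948). In replicate 3 they were 24.0% (background 21.3%) and 30.7%, and in replicate 4 they were 61.4% (background 57.2%) and 71.1%. The gap was -6.62 ± 2.18 points (SD, n = 4) and negative in 4 of 4 libraries, which again score the same windows. Without SEP3 replicate 4, the list with the other name prefix, it was -5.61 points.

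Over the 6 libraries of both complexes the gap was -7.60 ± 2.27 points (SD, n = 6), negative in 6 of 6. The libraries score the same windows and are not independent sets of sites. When only the 473 top summits of each list counted, the mean gap shrank to -1.85 points, with -0.170 for SEP3Δtet-AG. The gap of SEP3Δtet-AG minus that of SEP3 was -2.93 points, and 2.53 points when only those top summits counted. No difference between the complexes is read from it.

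**Figure D2:**
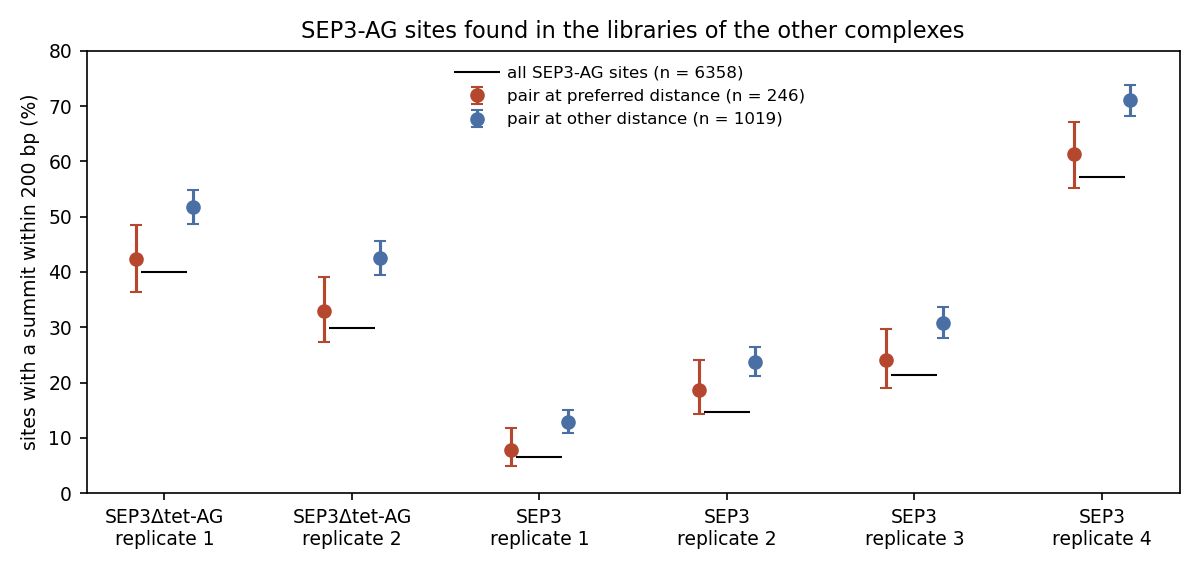
Percent of SEP3-AG sites with a summit within 200 bp in each library of SEP3Δtet-AG and SEP3, for 246 members and 1019 windows with pairs at other distances, with 95% Wilson intervals, and for all 6358 sites (black dashes). In all 6 libraries the members lie below the windows at other distances, with differences of -9.67 to -4.95 points, and close to all sites.

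Taken site by site, 80 members had a summit in both SEP3Δtet-AG libraries (32.5%, background 28.7%), against 41.2% of the comparison windows, and 141 in neither (57.3%, background 58.9%), against 46.9%. None of the 4 SEP3 libraries held a summit at 94 members (38.2%, background 42.3%), against 28.4%. A summit in all 6 libraries was found at 17 members (6.91%, background 4.97%), against 9.81%, a difference of -2.90 points with an interval from -6.13 to 1.32. No summit in any of the 6 was found at 85 members (34.6%, background 36.6%), against 24.3%, a difference of 10.2 points (3.93 to 16.9). The remaining members were spread over the steps between, with 51 in 1 library and 14 in 5.

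Calls are also given for sites of like rank in SEP3-AG. Members were chosen by spacings that are frequent in strong SEP3-AG sites. Matching on SEP3-AG rank may by itself lower them in the other complexes, which was not tested. The gaps that follow are therefore no support for those above. The 1265 windows were split into 4 equal parts by their mean rank over the SEP3-AG libraries, and 37% of the members fell in the strongest part, against 22.2% of the comparison windows. In SEP3Δtet-AG replicate 1, members were called in 76.9% of cases in the strongest part and in 39.0%, 18.2% and 5.77% in the next 3, against 85.0%, 54.9%, 43.0% and 29.5% at other distances. In replicate 2 the members' shares were 64.8%, 25.4%, 13.6% and 1.92%, against 81.9%, 45.9%, 29.4% and 18.9%. Members were thus below the comparison in all 4 parts of both libraries, and the interval of the difference included 0 in the strongest part of replicate 1 (-18.5 to 1.08). In the weakest part 3 of 52 members had a summit in replicate 1 and 1 of 52 in replicate 2. With each part weighted by its members, the gap was -16.2 and -17.6 points in SEP3Δtet-AG, and -9.54, -10.5, -12.7 and -14.0 points in SEP3 replicates 1 to 4.

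**Figure D3:**
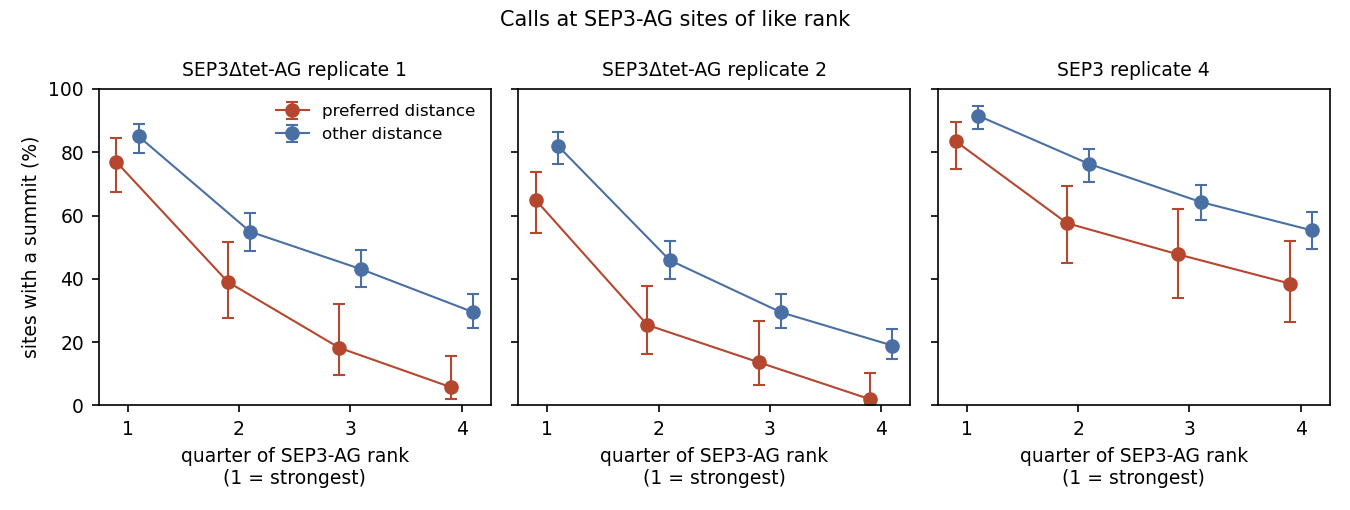
Percent of sites with a summit in 3 libraries, by part of the SEP3-AG ranking (1 is strongest), for members and for windows with pairs at other distances, with 95% Wilson intervals. The members' line lies below the other in every part, from 76.9% against 85.0% down to 5.77% against 29.5% in SEP3Δtet-AG replicate 1.

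Between 32 and 61 bp, the share of calls varied with the offset from the preferred distances, which the study had read by contrast with these libraries. Distances outside this range were not folded. Their mean SEP3Δtet-AG shares varied widely too, such as 28.9% at 68 bp, 69.4% at 90 bp and 26.3% at 92 bp, with few windows each. With distances from 32 to 61 bp folded onto a step of 10 bp, the SEP3Δtet-AG replicate 1 share was 41.3% at the offset of 36, 46 and 56 bp and 40.7% at that of 37, 47 and 57 bp. It was 46.4% at 1 bp less and 41.4% at 1 bp more than these offsets, and between 54.5% and 57.9% at the other 6. In replicate 2 the shares were 34.1% and 29.6% at the preferred offsets, 41.2% and 34.3% at the neighbours and 44.0% to 51.2% at the rest. Windows that the rule left out at 45 or 48 bp had a summit in 31.5% and 24.7% of cases in the 2 libraries, lower than the 45.9% and 35.7% of members at 46 or 47 bp. The other spacings went the opposite way. Windows at 35 or 38 bp had 47.8% and 43.5%, against 36.7% and 30.4% of members at 36 or 37 bp, and windows at 55 or 58 bp had 51% and 45.1%, against 41.9% and 31.1% of members at 56 or 57 bp. With all 6 distances moved by 5 bp and members left out, 108 windows at longer and 109 at shorter distances gave gaps of 4.74 and 8.84 points in SEP3Δtet-AG, opposite in sign to that of the members. Both moves include the distances of 41, 42, 51 and 52 bp, so they share windows and are not separate controls.

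**Figure D4:**
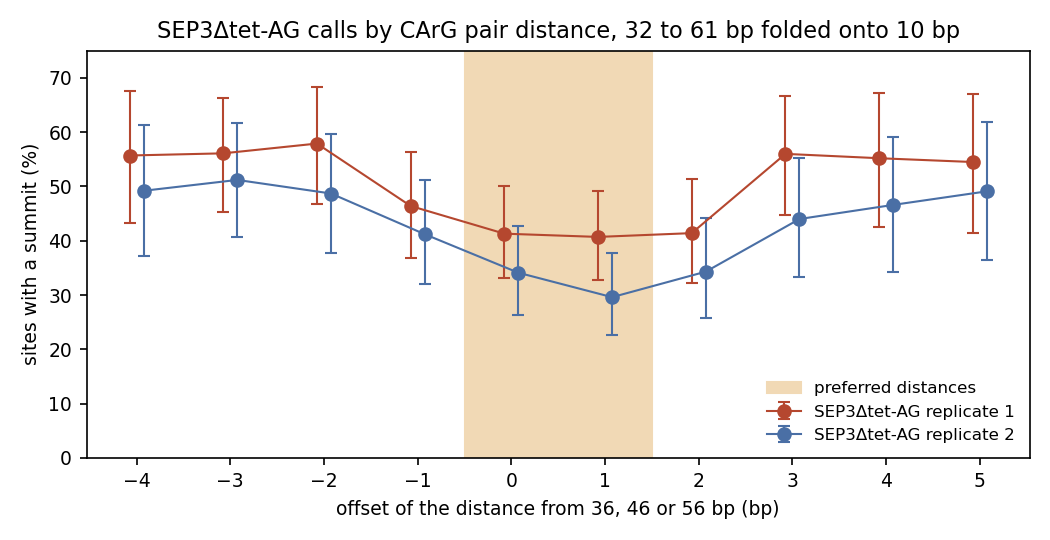
Percent of windows with a summit in the SEP3Δtet-AG libraries, by the offset of their pair distance from 36, 46 or 56 bp, with 95% Wilson intervals; 55 to 135 windows stand behind each point and a window with several pairs counts at each. Both libraries are lowest from -1 or 0 to 2 bp and higher on either side.

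Boxes of members were about as often imperfect as those of other pairs. Both boxes had a mismatch in 202 of 246 members (82.1%), against 80.6% at other distances, where the pair nearest the summit stood for its window. Only 1 member had 2 boxes without mismatch, so a rule without mismatches leaves no set to compare. Mismatches lay mainly in the outer bases. Of the 492 boxes, 189 (38.4%) had a mismatch at the first or last base and 176 (35.8%) at the next base inwards, against 13 (2.64%) at the central A or T bases. At other distances these shares were 37.2%, 38.5% and 2.75%. The boxes were diverse, with 258 different sequences when a box and its reverse complement count as the same, and the commonest, CCAAAAAAAG, made up 2.03% of them. ACAAATTTGG (1.63% against 0.442%) and CCAAATATAG (1.63% against 0.540%) were found 8 times each.

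Summits lay nearer the middle of the pair in members. The median distance from the midpoint of the pair to the summit was 12.2 bp, against 28.5 bp for pairs at other distances and 24.0 bp for those from 30 to 65 bp apart. The summit lay between the outer ends of the pair in 178 members (72.4%), against 56.8%, a difference of 15.5 points (95% Newcombe interval 8.91 to 21.6). GC content differed little. The median was 31.5% in the window and 29.7% between the boxes, against 31% and 28.1%. Members had more boxes in the window, with exactly 2 in 44.3% against 56.7%, which the rule favours, and with exactly 2 boxes required in both sets the call gap was -12.3 points in SEP3Δtet-AG and -7.75 in SEP3.

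Members were spread over the parts of the genome much as other SEP3-AG sites were. In the TAIR10.1 annotation, 84 summits (34.1%) fell in a promoter, taken as the 1000 bp before a gene start, 51 (20.7%) in an intron, 34 (13.8%) in a UTR, 10 (4.07%) in a coding exon and 67 (27.2%) elsewhere between genes. For pairs at other distances the promoter share was 31%, a difference of 3.14 points (95% Newcombe interval -3.21 to 9.86), and over all sites it was 31.3%. The intervals of the difference included 0 in all 5 classes. The median distance to the nearest start of a protein-coding gene was 782 bp, against 929 bp. Members were found on all 5 chromosomes, with 71, 51, 38, 41 and 45 sites on chromosomes 1 to 5.

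The strongest members lay beside genes of varied function. The best-ranked lay 1570 bp past the start of HB34, a homeodomain gene, with boxes 56 bp apart and its summit outside the pair. Its fold enrichment was 18.6, 19.1 and 20.5 in SEP3-AG, 13.9 and 8.96 in SEP3Δtet-AG, and 3.56, 3.81, 5.6 and 6.61 in SEP3 replicates 1 to 4. The site in an intron of AT1G19330, annotated as a subunit of a histone deacetylase complex, had boxes 46 bp apart and 15.3, 16 and 18.8 fold in SEP3-AG. It reached 14.1 and 8.54 in SEP3Δtet-AG and 6.05, 8.64, 7.65 and 7.72 in SEP3, whose highest value lay above the lower SEP3Δtet-AG value. The site in the promoter of KUP11, a potassium uptake permease, had boxes 47 bp apart and 17.0, 17.5 and 20.5 fold in SEP3-AG. It had 13.9 and 8.29 in SEP3Δtet-AG and 4.62, 4.47, 4.75 and 6.42 in SEP3. At these 3 sites each complex gave a summit in every library, and the SEP3-AG values lay above all others. Fold enrichment has no common scale across libraries, so this order is that of the lists.

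The site nearest AFB2, an auxin receptor F-box gene, lay 5751 bp past its start with boxes 56 bp apart, outside the region of any gene. It had 16, 16.4 and 18.4 fold in SEP3-AG, 10.4 and 7.84 in SEP3Δtet-AG and 3.52, 3.11, 3.33 and 5.37 in SEP3. The promoter of ATG18C, an autophagy gene, held a site at -236 bp from the start with boxes 36 bp apart and a first box without mismatch. Its values were 15.2, 15.5 and 17.2 in SEP3-AG, 11.2 and 7.77 in SEP3Δtet-AG and 4.58, 6.48, 6.69 and 6.83 in SEP3. These 5 were the best-ranked members with a summit in all 9 libraries. The other 5 of the 10 best lay nearest the starts of AT-HSFB2B (a heat shock factor), AT5G57720 (annotated as a B3-like transcription factor), AT2G33760, AT1G52155 and AT3G22142. All 5 had a summit in both SEP3Δtet-AG libraries, at 4.59 to 11.8 fold. Of these, AT-HSFB2B, AT1G52155 and AT3G22142, had none in SEP3 replicate 1, the list with 473 summits.

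Strong members were also found that no other complex gave. The best of the 85 lay in an intron of AT5G41900, annotated as an alpha/beta hydrolase, with boxes 47 bp apart and 13.3, 13.5 and 12.6 fold in SEP3-AG. The next lay in an intron of AT4G08540, with boxes 46 bp apart and 10.8, 11 and 13.1 fold, and in an intron of AT1G51720, with boxes 47 bp apart and 11.3, 10.1 and 9.12 fold. The site nearest TBL7, of the TRICHOME BIREFRINGENCE-LIKE family, lay 3437 bp past its start and had 11.4, 10.8 and 12.1 fold. The promoter site of AT5G05790, annotated as homeodomain-like, had boxes 37 bp apart and 11.1, 10.2 and 11.4 fold. All 5 were above the members' median in each SEP3-AG library except AT1G51720 in replicate 3, at 9.12 against 9.17. The 5 were picked from the 85 by SEP3-AG rank, so their place above the median follows largely from that choice. Like those of most members, none of their boxes was free of a mismatch.

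**Figure D5:**
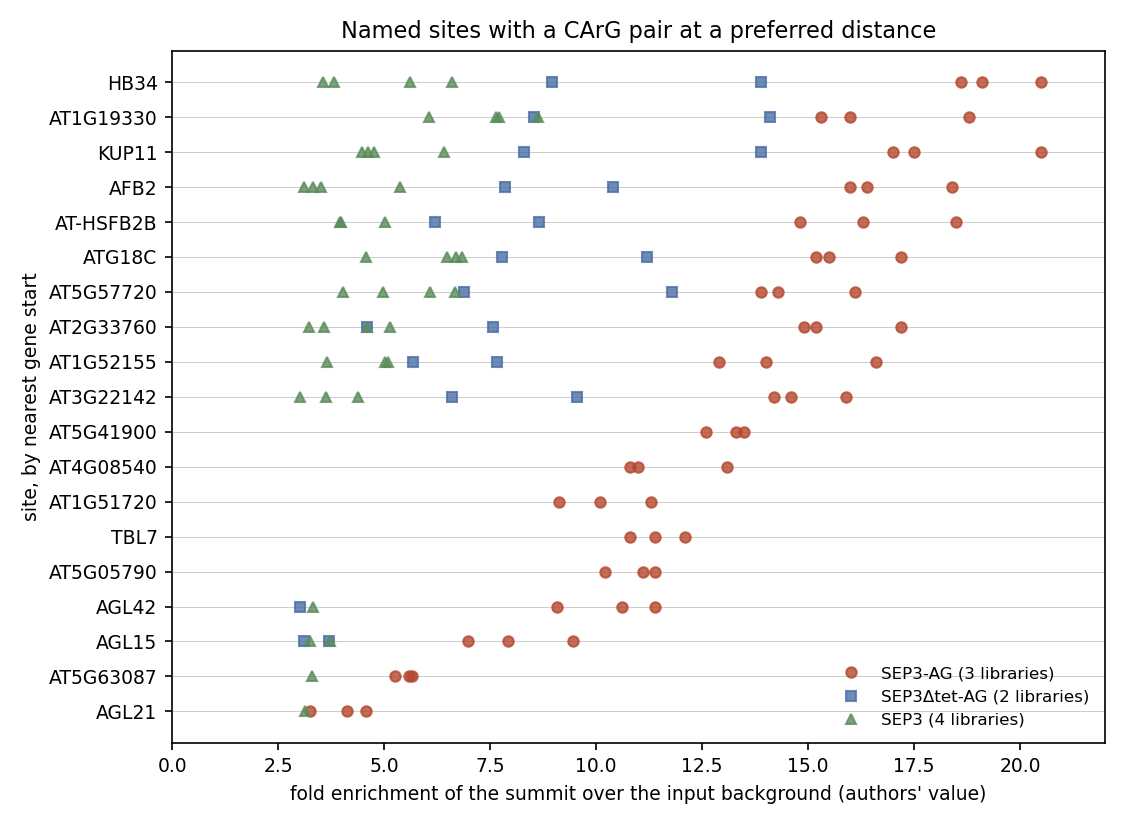
Fold enrichment of the summit (x axis, authors' ratio over the input background) at 19 named members, ordered by mean SEP3-AG rank, with a point for each library that gave a summit. The first 10 are the best-ranked members and have points of all 3 complexes with SEP3-AG highest. The next 5 were chosen for having no summit in the other complexes, so they have SEP3-AG points alone. They are not the members that follow the first 10 in rank.

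Members were also placed by gene. The region of a gene ran from 3000 bp before its start to 1000 bp past its end. Members touched the regions of 409 of 27444 protein-coding genes (1.49%), windows at other distances those of 1573 (5.73%) and any SEP3-AG site those of 8515 (31%). Of 146 genes in 12 lists on flowering and its hormones, 73 had any SEP3-AG site (50.0%), 18 a pair at another distance (12.3%) and 4 a member (2.74%). These shares are set beside those over all genes, and with 4 genes nothing particular to the lists is read from them. The 4 were the MADS genes AGL42, AGL15 and AGL21 among 16 genes listed as flowering-time MADS genes, and LOB among 11 organ boundary and KNOX genes. The first of these lists is broad and also holds the root gene AGL21. At a background of 1.49%, a count of 0 in lists of this size is not a result about the members. The 11 floral organ identity MADS genes had no member, 8 had a SEP3-AG site, and AP1 and AP3 had a pair at another distance. No member was found either in the 4 ovule and fruit MADS genes (2 with a site), the 15 floral meristem genes (6), the 20 carpel and fruit genes (13), the 11 stamen and pollen genes (4), the 13 organ polarity genes (6), the 7 AP2-type repressor genes (5), the 14 SPL and TCP genes (4), the 11 gibberellin genes (4) and the 14 auxin genes (4). These counts cover the regions of listed genes alone. A member lay nearest the start of the listed gene TOE1, at -4201 bp and thus outside its region. Members also lay in introns of ARF13 and TAR2, which the auxin list leaves out.

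At AGL42, a MADS gene known for a role in floral organ senescence, the member lay in the promoter, at -623 bp from the start, with boxes 57 bp apart and the second without mismatch. Its fold enrichment was 10.6, 9.07 and 11.4 in SEP3-AG and 3.02 in SEP3Δtet-AG replicate 1, with no summit in replicate 2. Among the SEP3 libraries replicate 4 gave 3.32 and the others no summit. At AGL15, a MADS gene known from embryos and as a repressor of flowering, the summit lay in the UTR 41 bp past the start, with boxes 57 bp apart. It had 7.93, 6.99 and 9.45 fold in SEP3-AG, 3.12 and 3.71 in SEP3Δtet-AG, and 3.24 and 3.73 in SEP3 replicates 2 and 4. At AGL21, a root MADS gene, the summit lay in the UTR 77 bp past the start, with boxes 47 bp apart and 4.13, 3.24 and 4.57 fold in SEP3-AG. The member in the region of LOB, which acts at organ boundaries, lay nearest the start of AT5G63087 and had boxes 56 bp apart and 5.58, 5.66 and 5.25 fold. AGL21 and LOB had no summit in SEP3Δtet-AG, and among SEP3 libraries replicate 4 alone gave one, at 3.14 and 3.29 fold.

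Other members lay near MADS genes outside the lists, and these were chosen after the values were seen. The site 949 bp past the start of AGL57 had boxes 46 bp apart, 10.8 and 10.3 fold in SEP3-AG replicates 1 and 3 and 7.03 and 4.71 fold in SEP3Δtet-AG. The site in the UTR of AGL30, known from pollen, had boxes 46 bp apart, 10.4, 9.46 and 12.1 fold in SEP3-AG and 3.20 and 3.03 fold in SEP3Δtet-AG. The site in the promoter of AGL23, known from the embryo sac, had boxes 36 bp apart and 10.2, 6.15 and 11.7 fold in SEP3-AG, with no summit in SEP3Δtet-AG. A further member lay nearest the start of the listed gene AGL44, at -4923 bp and thus outside its region, with boxes 47 bp apart and 9.73 to 15.5 fold in SEP3-AG. It had 3.91 fold in SEP3Δtet-AG replicate 1 and no summit in replicate 2. SEP3 replicate 4 gave a summit at each of these sites, at 4.28 fold for AGL57, 3.38 for AGL30, 3.57 for AGL23 and 5.40 for AGL44. SEP3 replicate 3 gave a summit at AGL57 alone, at 3.34 fold.

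KNU, a repressor that ends the floral meristem and whose promoter the study used to vary box spacing, was not a member. Its site lay at -925 bp from the start, with fold enrichment of 5.19, 4.86 and 7.45 in SEP3-AG, no summit in SEP3Δtet-AG and 3.42 in SEP3 replicate 4. Under the rule its boxes were CCATGTTTGG and ACAAATAAGG, 69 bp apart, which put it among the windows at other distances. The weaker sequences that lie 45 and 46 bp after the first box, TCTTCTTTGT and CTTCTTTGTG, had 3 and 4 mismatches and were not boxes under this rule. Pairs of a strong and a weak box of this kind are therefore not counted among the 246.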

How the data were processed

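The authors aligned trimmed paired reads to the TAIR10 nuclear chromosomes with Bowtie2, kept reads with a single position, removed duplicates with SAMtools and called peaks in each library with MACS2 against the input DNA. Base calling with bcl2fastq 2.17 is named in the submitters' processing notes, which give no other versions. Replicates were not pooled in these lists. The deposited lists give, for each summit, a fold enrichment (ratio over the local input background), the −log10 p-value and −log10 q-value, and a whole-number score that was not used. The lowest deposited −log10 q was 4.01. Lists hold no read counts, and the number of summits in a list does not measure its depth. By the study's read counts, SEP3 replicate 1, the shortest list, had more reads than any SEP3-AG library. It had the lowest percent of reads in peaks. Neither value was used here, and members and comparison windows share the depth and enrichment of each library.

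Summits, windows, boxes and pairs were computed with Python 3.11.15 (NumPy 2.4.6, pandas 2.3.3, SciPy 1.17.1) on the TAIR10.1 RefSeq sequence, whose 5 nuclear chromosomes contain all listed peak coordinates. A call was a summit within 200 bp. Ranks were by −log10 p within a list. Shares carry Wilson and differences Newcombe 95% intervals, for counting error only. The library was the replicate. Exact sign-flip tests of ranks and call gaps and an exact permutation test of the gap between complexes were computed over libraries, with Benjamini-Hochberg adjustment over 5 tests. The p-values of these tests are not given as results, since the distances were read from these libraries. The study describes replicate protein reactions for the AG complexes, but the labels do not tie them to single libraries. The steps were tested on simulated data. Named sites were the 10 best by mean SEP3-AG rank, the 5 best with a summit in all 9 libraries, the 5 best with none in the 6 other libraries, and every member in the region of a listed gene, each named by the nearest protein-coding gene start, with KNU added as the study's tested promoter. All symbols of the 12 lists were matched to RefSeq loci, SEP1, SEP2 and RGA by locus. The members, distances and lists were chosen with earlier results of these data known. Alternatives varied mismatches, window, call distance, distances, rank, call threshold and libraries.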

Additional observations from a re-analysis of the deposited data

Results flagged for a closer look

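Of 12 sets of 4 SEP3 values tested for a sample far from the others, 2 were found, and chance gives about 5 in 100. At KUP11 the fold enrichment in SEP3 replicate 4 was 6.42, against 4.62, 4.47 and 4.75 in replicates 1 to 3. Replicate 4 is the list with another name prefix. At ATG18C it was 4.58 in SEP3 replicate 1, the shortest list, against 6.48, 6.69 and 6.83 in replicates 2 to 4.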

How the results depend on the processing

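Gaps in calls are given in percentage points, members minus windows at other distances. With no mismatch allowed a single member was left, and the gap over 6 libraries was -24.6 points, the SEP3-AG rank probability 0.158 and the promoter gap 57.9 points, so these values describe 1 site. With at least 1 box without mismatch there were 44 members. Distances 5 bp longer gave 108 windows and gaps of 4.74 for SEP3Δtet-AG, 1.21 for SEP3 and 2.38 over 6 libraries, a difference between complexes of 3.53 and a rank probability of 0.493. Distances 5 bp shorter gave 109 windows and gaps of 8.84, 2.90 and 4.88, a difference of 5.94 and a rank probability of 0.494. The windows of both moves overlap. An equal number of top summits gave -1.85 over 6 libraries and turned the difference between complexes to 2.53. Leaving out a SEP3-AG, SEP3Δtet-AG or SEP3 library gave -9.88 to -7.30 for SEP3Δtet-AG, -7.18 to -5.49 for SEP3, -8.13 to -6.09 over 6 libraries, -3.95 to -1.82 for the difference between complexes, 0.586 to 0.592 for the rank probability, 3.25 to 4.18 for the promoter gap and 247 to 280 members. A promoter of 3000 bp gave a promoter gap of -2.71, within the interval of the main value. With replicate numbers 1 and 2 as a block the difference between complexes was -4.51 points, and the labels do not say that a number marks a shared batch. The other alternatives kept the direction. Peak lists limit these values to sites above each library's threshold, and the shortest list, with 473 summits, holds 19 members.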
